A study of Mus musculus with 8 samples.

Results

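The genes described here make, sense or break down prostaglandins and leukotrienes, and were measured in the spleens of lymphoma-bearing mice and of control mice on Affymetrix Clariom S HT arrays. The list held 9 genes, *Ptgs1*, *Ptgs2*, *Ptges*, *Ptger2*, *Ptger4*, *Hpgd*, *Alox5*, *Alox5ap* and *Alox15*. A gene was read from the transcript cluster that carries its symbol in the platform annotation, a transcript cluster being a group of probes laid along the exons of 1 gene. Of these 9 genes, 8 had a cluster, out of 19505 named genes on the array, and *Ptgs1* was not analysed here. Among several clusters of a gene, 1 was to be selected on its mean log2 value over all arrays, but each of the 8 genes had only 1. The genes themselves were chosen by name, with earlier results of these arrays known.

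The lymphoma group comprised 4 spleen samples of lymphoma-bearing Trp53KI/KI;Vav1DC/DC animals, and the control group 4 spleen samples of Trp53KI/KI animals. All were of the C57BL/6 strain. Both groups therefore share the first of these alleles. The lymphoma group also carries on both alleles a *Vav1* that lacks the end of its protein, in every cell and from the germ line, and no array of that *Vav1* allele without lymphoma was analysed here. Disease and *Vav1* allele therefore cannot be told apart. The sources used here give neither the age nor the sex of the animals on the arrays, and do not say whether arrays came from separate animals. The p-values therefore reflect no more than the spread among these samples, which may be technical. RNA came from whole spleen, in which fewer cells of a type and less RNA per cell cannot be told apart.

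Values are on the log2 scale, on which a difference of 1 is a 2-fold change. The deposited values had a median over the 22206 clusters of 7.22 to 7.24 on lymphoma arrays and of 7.19 to 7.21 on control arrays. Markers of spleen were present in both groups, with the mean of 8 B cell genes at 10.1 to 10.4 on lymphoma arrays and 11.4 to 11.5 on control arrays. The genes *Kdm5d*, *Uty* and *Eif2s3y* of the Y chromosome, chosen after seeing their values, lay above the antigenomic median of every array and had log2 fold changes of -1.38, -1.25 and -1.28. Lymphoma array 3 had the lowest value of each (7.17, 7.37 and 8.91). The methods speak of female animals for *in vivo* work, without saying so of the arrays. The part of these differences in the results was not tested.

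Prostaglandins and leukotrienes are short-lived lipid signals made from arachidonic acid. Phospholipases A2 free the acid from membranes. Cyclooxygenases, encoded by *Ptgs1* in most cells at rest and by *Ptgs2* after stimulation, turn it into prostaglandin H2, from which terminal synthases such as the one encoded by *Ptges* make prostaglandin E2 and its relatives. Prostaglandin E2 acts through a family of receptors that includes those of *Ptger2* and *Ptger4*, which raise cyclic AMP in lymphocytes and myeloid cells, and the dehydrogenase of *Hpgd* inactivates it. In the other branch, 5-lipoxygenase (*Alox5*), with its activating protein in the nuclear membrane (*Alox5ap*), starts the synthesis of leukotrienes in neutrophils, macrophages and mast cells, whereas *Alox15* encodes a lipoxygenase known in mouse from eosinophils and resident peritoneal macrophages.

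*Ptgs2* was by far the most changed of the 8 genes, and the sequence around its start is given first, with that of *Ptges*, which acts on its product, and that of *Hpgd*, whose enzyme breaks prostaglandin E2 down. The sequences are those of RefSeq for GRCm38.p6, written 5′ to 3′ along the gene, and 7 of the 9 genes matched a window of 300 bases there. Capitals mark the motifs found among those searched.
Ptgs2, 250 bases before the start, chr1:150099781-150100030, plus strand: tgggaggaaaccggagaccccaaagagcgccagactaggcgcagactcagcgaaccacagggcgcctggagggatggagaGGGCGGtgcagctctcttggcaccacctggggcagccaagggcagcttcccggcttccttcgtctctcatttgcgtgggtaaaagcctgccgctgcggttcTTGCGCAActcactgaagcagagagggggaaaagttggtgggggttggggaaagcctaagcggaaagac
Ptgs2, first 30 bases of the transcript, chr1:150100031-150100060, plus strand: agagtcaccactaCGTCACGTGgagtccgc
Ptges, 150 bases before the start, chr2:30903298-30903447, minus strand: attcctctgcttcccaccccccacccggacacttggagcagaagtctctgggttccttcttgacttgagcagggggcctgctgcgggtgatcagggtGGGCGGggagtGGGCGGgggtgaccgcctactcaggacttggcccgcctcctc
Hpgd, 150 bases before the start, chr8:56294402-56294551, plus strand: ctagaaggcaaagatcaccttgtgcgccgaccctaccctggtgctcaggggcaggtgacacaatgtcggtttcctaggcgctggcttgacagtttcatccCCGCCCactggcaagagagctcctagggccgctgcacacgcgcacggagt
Hpgd, first 30 bases of the transcript, chr8:56294552-56294581, plus strand: gggcTATAAAagctgctgcggcgtccagac

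Both strands of each window were searched for 7 motifs: TGACG (the shorter site of factors that answer to cyclic AMP, found in 20.8% of all 32851 windows of the same length), CACGTG (the E-box, 7.15%), TTGCGCAA (the palindrome read by C/EBP factors, 0.183%), TGANTCA (AP-1, 7.81%), GGGNNTTCC (the core read by NF-kB, 5.82%), TATAAA (the TATA box, 13.6%) and GGGCGG (the GC box, 35.7%). The *Ptgs2* window held 4 of them. A GC box stood at bases -170 to -165 before the start and the C/EBP palindrome at -69 to -62. Within the transcript, TGACG on the minus strand at bases 14 to 18 overlapped the E-box at bases 17 to 22, so both are in the 1 run of capitals. The C/EBP palindrome was the rarest of the 7, in 60 of the 32851 windows. The *Ptges* window held 2 GC boxes, the *Ptger4* window 4 and the *Alox5* window 1, and that of *Hpgd* a TATA box at bases 5 to 10 and 1 GC box on the minus strand. The windows of *Ptger2* and *Ptgs1* held none of these letters. The matches describe the sequence and were set against no binding data.

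Of the 8 measured genes, 5 were higher in lymphoma spleens, *Ptgs2*, *Ptges*, *Ptger2*, *Ptger4* and *Alox5ap*, 0 were lower, and 3, *Hpgd*, *Alox5* and *Alox15*, did not pass the test (limma over all clusters, Benjamini-Hochberg adjusted p of at most 0.05). Over all 22206 clusters, 18.2% were called higher and 17.2% lower by the same rule, 35.4% in all. At an unadjusted p under 0.05 from limma, too, 0 of the 8 genes were lower. Only *Ptgs2* was called at 2-fold or more, as were 3.03% of all clusters upwards and 0.680% downwards. The values of *Ptgs2*, *Ptges*, *Ptger2* and *Alox5ap* did not overlap between the groups, with all lymphoma arrays above all control arrays, as was the case for 18.0% of all clusters, against 16.7% the other way round. The median log2 fold change was 0.34 over the 8 genes and -0.06 over all clusters.

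**Figure D1:**
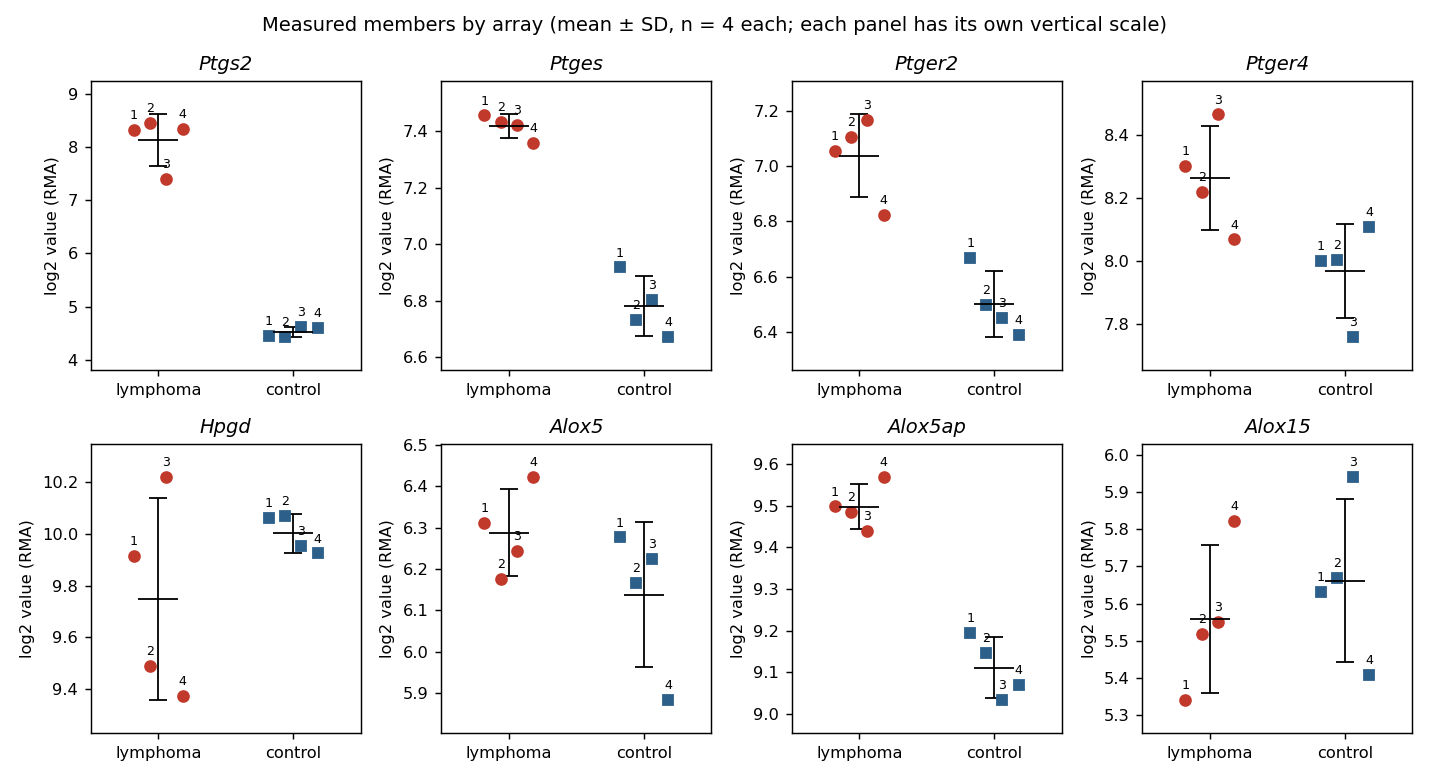
Log2 values of the 8 measured genes on each array, with lymphoma arrays as red circles left of control arrays as blue squares. Numbers are replicate numbers, lines and bars give mean and SD (n = 4 each), and each panel has its own scale, so heights compare only within a panel. *Ptgs2* shows a gap between a lowest lymphoma value of 7.41 and a highest control value of 4.62, whereas *Hpgd*, *Alox5* and *Alox15* overlap.

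*Ptgs2*, which encodes the inducible cyclooxygenase, had log2 values of 8.32, 8.46, 7.41 and 8.34 on lymphoma arrays, against 4.45, 4.43, 4.62 and 4.60 on control arrays. Lymphoma array 3 lay lowest of its group, yet far above every control array. The group means were 8.13 ± 0.49 in lymphoma spleens and 4.53 ± 0.096 in control spleens (SD, n = 4 each, limma adjusted p = 1.81e-08 for the measured values). All 4 control values lay below background, taken as the median of the antigenomic rows of the array, whose probes match no known mouse sequence, so the fold is given only as a bound: with the control arrays raised to that median, *Ptgs2* was at least 9.67-fold higher. The bound rests on that floor. The 95th percentile of the same rows was 8.60 to 8.99 on lymphoma arrays and 8.73 to 8.84 on control arrays. Every *Ptgs2* value lay below that of its array, so against it no bound can be given. The spread among lymphoma arrays was wide: the SD exceeded that of 99.6% of the 500 clusters nearest in mean level over all 8 arrays (their median SD was 0.145). Among control arrays it exceeded 17.0%. That mean was 6.33 for *Ptgs2* and lay between the groups, so these clusters match neither group in level.

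*Ptges* encodes the microsomal prostaglandin E synthase that is coupled to the inducible cyclooxygenase. Its values were 7.46, 7.43, 7.42 and 7.36 on lymphoma arrays, against 6.92, 6.73, 6.80 and 6.67 on control arrays. The lymphoma arrays lay closely together above all control arrays, and only 3.19% of 500 clusters of like level had a smaller SD there. The means of 7.42 ± 0.042 in lymphoma spleens and 6.78 ± 0.11 in control spleens (SD, n = 4 each) gave a log2 fold change of 0.64 (SE 0.078, 95% interval 0.47 to 0.81, limma adjusted p = 3.08e-05), or 1.55-fold. The narrow spread of *Ptges* on the arrays on which *Ptgs2* varied most is a difference between the genes in their variation only, since levels of different probes were not compared.

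Of the receptors of prostaglandin E2, *Ptger2* and *Ptger4* were called higher in lymphoma spleens. *Ptger2*, which encodes the EP2 receptor, had values of 7.05, 7.10, 7.17 and 6.82 on lymphoma arrays, against 6.67, 6.50, 6.45 and 6.39 on control arrays. The groups did not overlap, although lymphoma array 4 and control array 1 were near each other. The means were 7.04 ± 0.15 in lymphoma spleens and 6.50 ± 0.12 in control spleens (SD, n = 4 each), with a log2 fold change of 0.53 (SE 0.094, 95% interval 0.33 to 0.74, limma adjusted p = 0.000612), or 1.45-fold.

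*Ptger4*, which encodes the EP4 receptor, had values of 8.30, 8.22, 8.47 and 8.07 on lymphoma arrays, against 8.002, 8.003, 7.76 and 8.11 on control arrays. Here the groups overlapped, because lymphoma array 4 lay below control array 4. The means were 8.27 ± 0.17 in lymphoma spleens and 7.97 ± 0.15 in control spleens (SD, n = 4 each), and the log2 fold change was 0.30 (SE 0.10, 95% interval 0.076 to 0.52, limma adjusted p = 0.0375), or 1.23-fold. Of the 5 called genes it was the weakest call: it was kept without lymphoma array 4 or control array 4 and lost without any of the other arrays, with limma adjusted p between 0.0172 and 0.111.

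The difference between the receptors was tested as well. On each array the log2 value of *Ptger2* was taken from that of *Ptger4*, and this difference averaged 1.23 ± 0.079 in lymphoma spleens and 1.47 ± 0.19 in control spleens (SD, n = 4 each). It was thus smaller by 0.24 in lymphoma spleens, so the mean rise of *Ptger2* was the larger one (exact two-sided permutation test over 70 labellings, p = 0.0286). In that test adjusted over 3 pairs of genes, the others being *Alox15* with *Alox5* and *Ptgs2* with *Hpgd*, p was 0.0429. The pair of *Ptgs2* and *Hpgd* was formed with the rise of *Ptgs2* known, and the pass at 0.0429 rests on that pair and does not stand without it. A p of 0.0286 is the smallest that 4 against 4 arrays can give. The call was lost without any of the 4 lymphoma arrays or without control array 4, with differences of -0.26 to -0.15.

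*Hpgd* encodes 15-hydroxyprostaglandin dehydrogenase, the enzyme that starts the breakdown of prostaglandin E2. It had values of 9.91, 9.49, 10.22 and 9.37 on lymphoma arrays, against 10.06, 10.07, 9.95 and 9.92 on control arrays. The control arrays were nearly alike, whereas the lymphoma arrays lay on both sides of them, with array 3 above all and arrays 1, 2 and 4 below all. The means were 9.75 ± 0.39 in lymphoma spleens and 10.002 ± 0.074 in control spleens (SD, n = 4 each), with a log2 fold change of -0.25 (SE 0.15, 95% interval -0.58 to 0.075, limma adjusted p = 0.219). The SD of *Hpgd* on lymphoma arrays exceeded that of 99.8% of 500 clusters of like level, whose median SD was 0.0916. Without lymphoma array 3 the log2 fold change was -0.41 and passed the test (limma adjusted p = 0.0212).

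*Ptgs2* and *Hpgd* stand at opposite ends of the life of prostaglandin E2. With *Ptgs2* raised to background on control arrays, its log2 value minus that of *Hpgd* was higher by at least 3.53 in lymphoma spleens. This pair was formed with the rise of *Ptgs2* known, and that rise makes up most of the difference, so it is a description and no test is given.

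In the leukotriene branch, the gene of the activating protein moved and that of the enzyme did not pass the test. *Alox5ap* had values of 9.50, 9.49, 9.44 and 9.57 on lymphoma arrays, against 9.19, 9.15, 9.03 and 9.07 on control arrays. All lymphoma arrays lay above all control arrays, with little spread in either group. Its means of 9.50 ± 0.053 in lymphoma spleens and 9.11 ± 0.072 in control spleens (SD, n = 4 each) gave a log2 fold change of 0.39 (SE 0.075, 95% interval 0.23 to 0.55, limma adjusted p = 0.00120), or 1.31-fold.

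*Alox5*, the gene of 5-lipoxygenase itself, had values of 6.31, 6.18, 6.24 and 6.42 on lymphoma arrays, against 6.28, 6.17, 6.22 and 5.88 on control arrays. Apart from control array 4, which was lower, the groups covered much the same range. The log2 fold change was 0.15 (SE 0.097, 95% interval -0.060 to 0.36, limma adjusted p = 0.253). Whether *Alox5* and *Alox5ap* changed by different amounts was not tested.

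*Alox15*, which encodes the 12/15-lipoxygenase of mouse, had values of 5.34, 5.52, 5.55 and 5.82 on lymphoma arrays, against 5.63, 5.67, 5.94 and 5.41 on control arrays. The groups overlapped almost wholly, and the log2 fold change was -0.10 (SE 0.12, 95% interval -0.37 to 0.16, limma adjusted p = 0.544). The log2 value of *Alox15* minus that of *Alox5* averaged -0.73 ± 0.16 on lymphoma arrays and -0.48 ± 0.15 on control arrays (SD, n = 4 each). Their difference of -0.25 did not pass (exact two-sided permutation test, p = 0.0571, adjusted over 3 pairs p = 0.0571).

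Single lymphoma arrays stood at opposite ends for different genes. Lymphoma array 4 had the lowest lymphoma value of *Ptges*, *Ptger2*, *Ptger4* and *Hpgd* and the highest of *Alox5*, *Alox5ap* and *Alox15*. Lymphoma array 3 had the highest lymphoma value of *Ptger2*, *Ptger4* and *Hpgd* and the lowest of *Ptgs2* and *Alox5ap*.

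**Figure D2:**
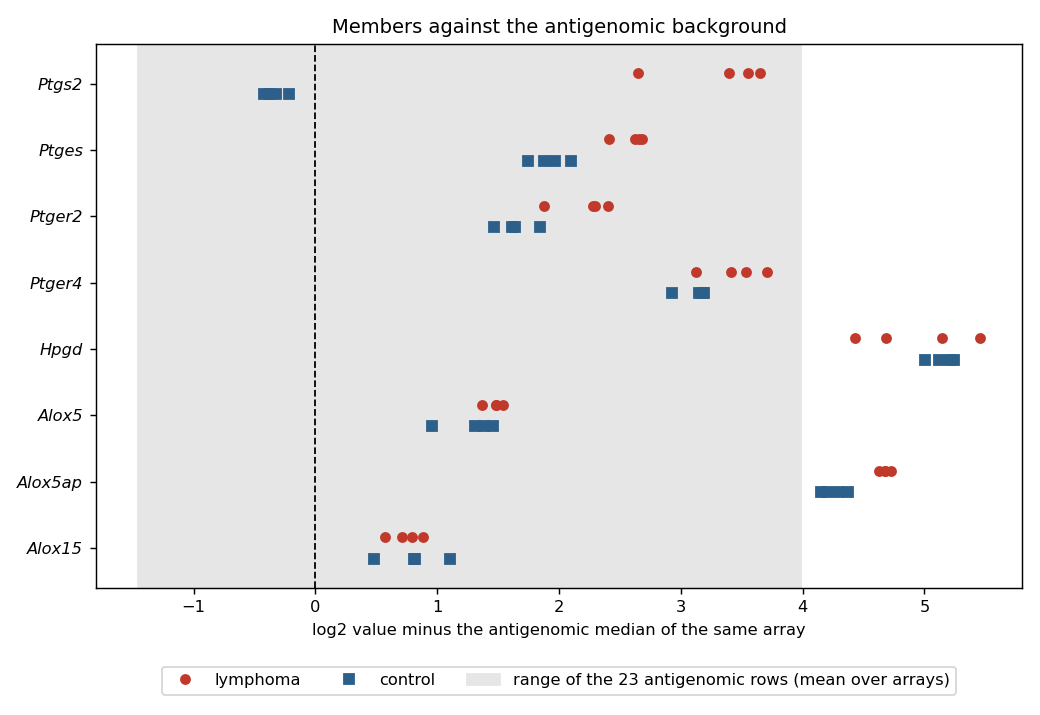
Log2 value of each measured gene minus the median of the 23 antigenomic rows of the same array, with lymphoma arrays as red circles above control arrays as blue squares; the grey band spans the 23 rows, as means over arrays. *Ptgs2* lies below the median on all control arrays and 2.65 to 3.65 above it on lymphoma arrays, and *Hpgd* and *Alox5ap* lie beyond the band on every array.

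The antigenomic rows, 23 per array, show how near each gene lay to background. Their median lay between 4.76 and 4.94 over the 8 arrays, but each row holds probes of another GC content, and over all arrays they ran between 3.35 and 9.13. The GC content of the gene probes was not known here, so the median is a rough floor. *Hpgd* and *Alox5ap* exceeded all 23 rows on all 8 arrays. *Ptger4* exceeded 17 to 21 of the 23 rows on lymphoma arrays and 17 or 18 on control arrays, and *Ptges* 15 or 16 on lymphoma arrays and 14 or 15 on control arrays. *Ptger2* exceeded 15 or 16 rows on lymphoma arrays and 14 or 15 on control arrays. *Alox5* exceeded 14 rows on each lymphoma array and 13 or 14 on control arrays. *Alox15* was the closest to background on lymphoma arrays, above 13 of the 23 rows on each array, by 0.57 to 0.88 over the median on lymphoma arrays and 0.48 to 1.10 on control arrays.

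*Ptgs2* alone changed its place among these rows by much. It exceeded 20, 21, 16 and 18 of the 23 rows on lymphoma arrays, but 11 on each control array. Seen from the median, it stood at 3.55, 3.65, 2.65 and 3.40 on lymphoma arrays, against -0.37, -0.42, -0.22 and -0.33 on control arrays. Of the 8 genes, 7 were above the median on every array, and 2 were above the 95th percentile of the rows on every array.

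A wider list of 67 other genes of the pathway was read in the same fit, and 62 of them were measured. Of these, 18 were higher in lymphoma spleens, 7 were lower and 37 did not pass, with a median log2 fold change of -0.02. These are 29.0% higher and 11.3% lower, beside 18.2% and 17.2% of all clusters. Called at 2-fold or more were 6 higher and 0 lower. The counts by role group and by cell type below are also to be set beside the 18.2% and 17.2% of all clusters.

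**Figure D3:**
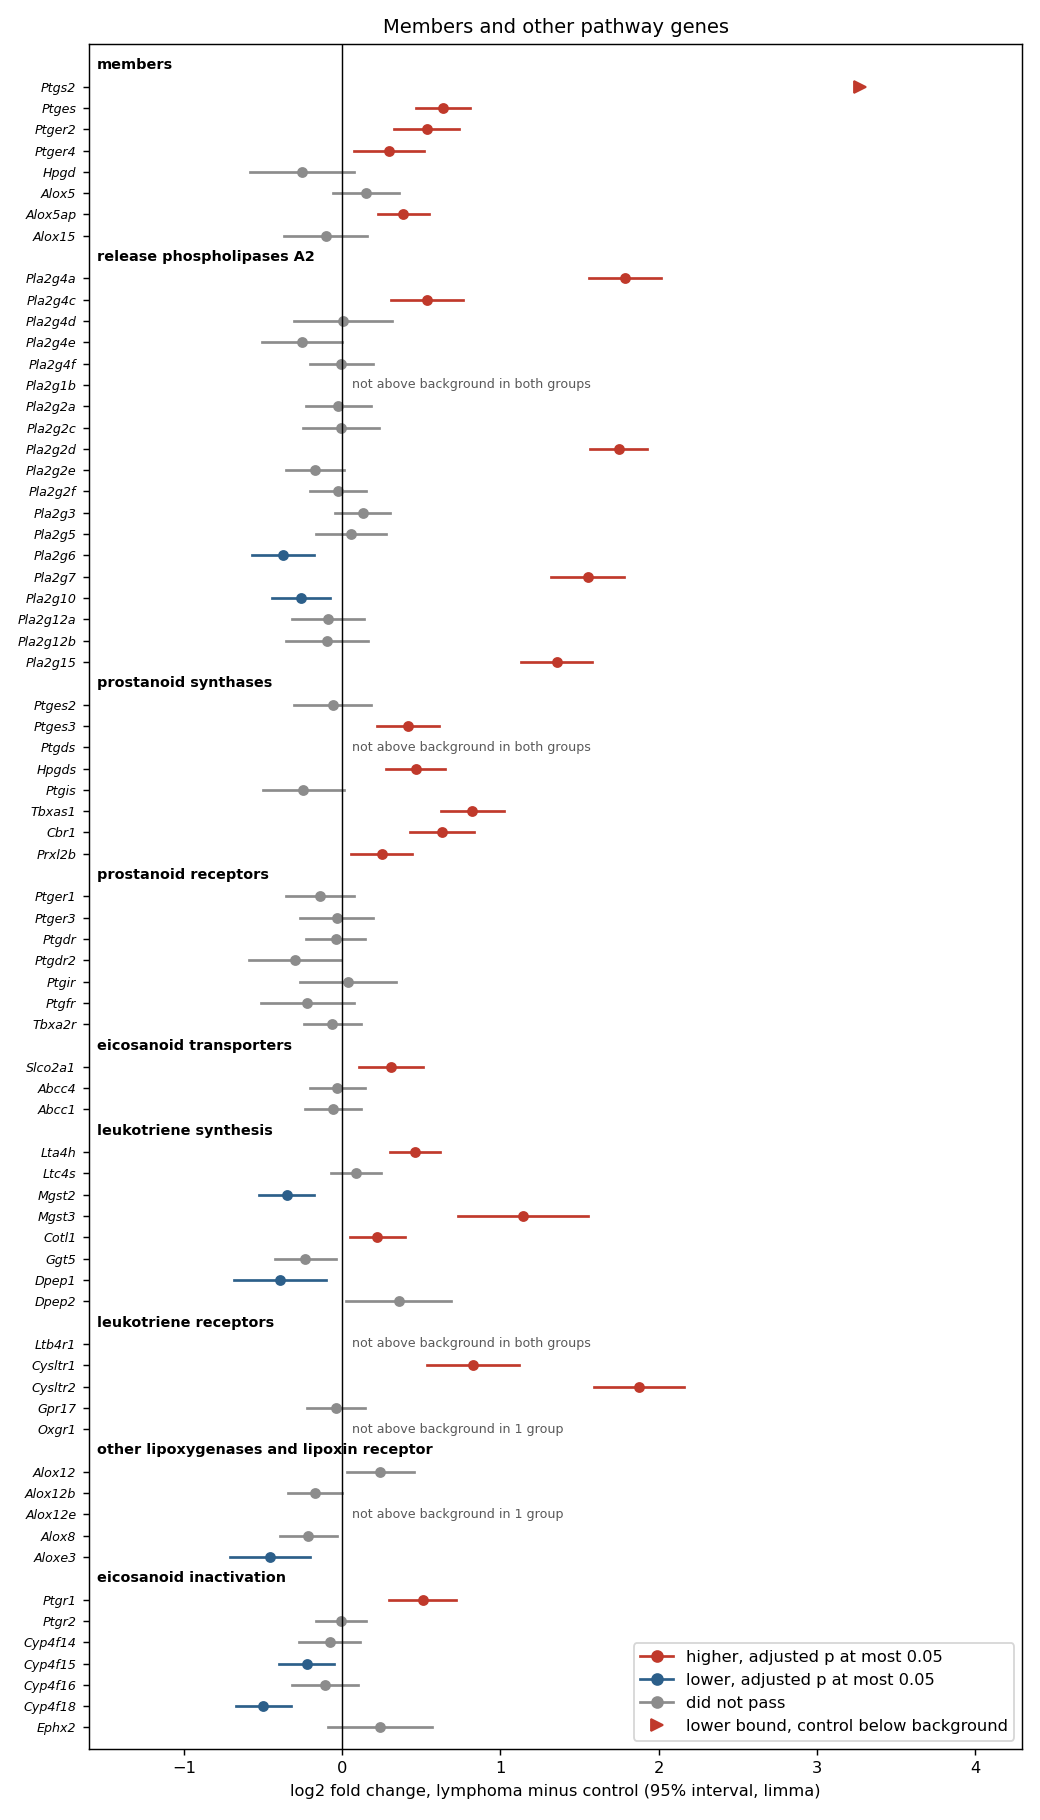
Log2 fold change, lymphoma minus control, with its 95% interval from limma for the 8 measured genes and the 62 other pathway genes by role; red was called higher, blue lower, and grey did not pass. *Ptgs2* is drawn at its lower bound of 9.67-fold, and genes with all arrays of a group at or below the background median have no point. *Cysltr2* at 1.88, *Pla2g4a* at 1.79 and *Pla2g2d* at 1.75 lie far to the right, whereas all 7 other prostanoid receptors are grey.

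Among 19 measured phospholipases A2, 5 were higher and 2 were lower. *Pla2g4a*, the cytosolic enzyme that releases arachidonic acid for both branches, had values of 9.23, 9.56, 8.99 and 9.27 on lymphoma arrays, against 7.47, 7.44, 7.47 and 7.51 on control arrays. No control array came near the lymphoma arrays, and its log2 fold change was 1.79 (SE 0.10, limma adjusted p = 5.64e-08), or 3.46-fold. Like *Ptgs2*, it was lowest in lymphoma array 3. *Pla2g2d*, a secreted phospholipase known from lymphoid organs, rose by 1.75 on the log2 scale (SE 0.084, limma adjusted p = 1.21e-08). *Pla2g7*, which acts on platelet-activating factor and oxidised phospholipids rather than on the membrane store of arachidonic acid, rose by 1.55 (SE 0.11, limma adjusted p = 1.96e-07). *Pla2g15*, a lysosomal phospholipase named after its values were seen, rose by 1.36, and the remaining called genes, *Pla2g4c*, *Pla2g6* and *Pla2g10*, likewise named afterwards, changed by less than 2-fold.

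Of 8 other prostanoid synthases, 5 were higher and 0 were lower. *Tbxas1*, thromboxane A synthase, rose by 0.82 (SE 0.092, limma adjusted p = 1.40e-05), with values of 9.65, 9.61, 9.68 and 9.34 on lymphoma arrays, against 8.69, 8.72, 8.88 and 8.70 on control arrays. *Cbr1*, a carbonyl reductase that can turn prostaglandin E2 into prostaglandin F2 alpha, rose by 0.63 (SE 0.093, limma adjusted p = 0.000141), and *Hpgds*, the prostaglandin D synthase of blood cells, by 0.47 (SE 0.087, limma adjusted p = 0.000903). The further prostaglandin E synthases went separate ways in the test. *Ptges3* was called higher at 0.42 and *Ptges2* did not pass at -0.06, both named after their values were seen.

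The 7 other prostanoid receptors gave 0 calls in either direction, with limma adjusted p between 0.102 for *Ptgdr2* and 0.856 for *Ptgir*. At an unadjusted p under 0.05 from limma, 0 were higher and 1, *Ptgdr2*, was lower. Beside the calls of *Ptger2* and *Ptger4*, the other prostaglandin E2 receptors *Ptger1* and *Ptger3* had log2 fold changes of -0.14 (95% interval -0.36 to 0.078) and -0.03 (95% interval -0.26 to 0.20). These genes were named after their values were seen. Among 3 transporters, *Slco2a1*, which carries prostaglandins into cells, was called higher at 0.31 (limma adjusted p = 0.0216), with overlapping groups. It did not pass without lymphoma array 3 (0.27) or control array 1 (0.25) or 4 (0.27), with limma adjusted p of 0.0606 to 0.0646.

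Of 8 other genes of leukotriene synthesis, 3 were higher and 2 were lower. *Lta4h*, whose enzyme makes leukotriene B4, had values of 9.83, 9.69, 9.78 and 9.69 on lymphoma arrays, against 9.28, 9.28, 9.29 and 9.30 on control arrays. The control arrays hardly differed, and the log2 fold change was 0.46 (SE 0.072, limma adjusted p = 0.000230). *Mgst3*, a microsomal glutathione transferase that can form leukotriene C4, rose by 1.15 (SE 0.19, limma adjusted p = 0.000384), although its control arrays spread from 6.11 to 7.13. *Dpep1*, a dipeptidase that trims leukotriene D4, fell by 0.39 (limma adjusted p = 0.0364), with overlapping groups. Without lymphoma array 1 its log2 fold change was -0.26 (limma adjusted p = 0.101), and the call was also lost without lymphoma array 3 (-0.39) or control array 2 (-0.35) or 4 (-0.36). *Ltc4s*, the dedicated leukotriene C4 synthase, did not pass at 0.09 (95% interval -0.073 to 0.24), and it was named after its values were seen.

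Leukotriene receptors were higher in 3 of 5 cases and lower in 0. *Cysltr2*, a receptor of the cysteinyl leukotrienes, had values of 7.01, 6.77, 7.07 and 6.44 on lymphoma arrays, against 5.04, 4.99, 5.04 and 4.71 on control arrays. Control array 4 was at or below the background median, the other control arrays were slightly above it, and the log2 fold change was 1.88 (SE 0.13, limma adjusted p = 2.17e-07). *Cysltr1*, its sister receptor, rose by 0.83 (SE 0.14, limma adjusted p = 0.000326), with all lymphoma arrays above all control arrays. *Ltb4r1*, the high-affinity receptor of leukotriene B4, was the weakest of the 3 calls (limma adjusted p = 0.0262), and all 8 of its values were at or below the background median, so it has no measured size here. Its call was lost without lymphoma array 2 or 4 or control array 2 or 3 (limma adjusted p of 0.0534 to 0.0856).

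Of 5 other lipoxygenases, *Aloxe3*, known from the epidermis, was called lower at -0.45 (limma adjusted p = 0.00850). Of 7 genes of inactivation, 1 was higher and 2 were lower. *Ptgr1*, a reductase that inactivates leukotriene B4 and prostaglandins already oxidised by *Hpgd*, rose by 0.51 (SE 0.098, limma adjusted p = 0.00117). *Cyp4f18*, which hydroxylates leukotriene B4 in mouse neutrophils, fell by 0.50 (SE 0.080, limma adjusted p = 0.000275), with values of 8.52, 8.64, 8.49 and 8.73 on lymphoma arrays, against 9.05, 9.14, 9.04 and 9.14 on control arrays. *Cyp4f15*, of the same family, fell by 0.22 (limma adjusted p = 0.0452), and its call was lost without any of the lymphoma arrays or control array 2 or 4, with log2 fold changes of -0.24 to -0.18.

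Markers of the cells that use this pathway moved with the lymphoma too. Of 14 neutrophil genes, 12 were higher, led by *Ngp* and *Lcn2* at 4.21 each and *S100a8* at 3.65, and the mean of the list was 9.02 to 9.16 on lymphoma arrays and 6.69 to 6.88 on control arrays. Of 9 genes of monocytes and inflammatory macrophages, 7 were higher, with a mean of 9.79 to 9.86 on lymphoma arrays and 8.90 to 9.02 on control arrays. Neither list had a gene below the background median on all arrays. These lists bear on *Ptgs2*, *Alox5ap*, *Alox5*, *Lta4h* and *Cyp4f18*, which myeloid cells are known to express, and their part in the results was not tested. On lymphoma array 3, where *Ptgs2* was lowest, the neutrophil list was lowest of the lymphoma arrays at 9.02, by a small margin. So were the lists of mast cells and basophils, of fibroblasts and of immediate early and stress genes. The list of monocytes and inflammatory macrophages was instead lowest on array 4, at 9.79.

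Of 18 immediate early and dissociation stress genes, which stimulation or handling of cells induces, as it can *Ptgs2*, 12 were higher and 1 was lower. Their mean was 8.47 to 8.58 on lymphoma arrays and 8.07 to 8.21 on control arrays, led by *Socs3* at 1.25, *Ier3* at 1.16 and *Jun* at 1.13. The part of these genes in the rise of *Ptgs2* was not tested.

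Other cell types differed in smaller measure or the other way. Of 11 mast cell and basophil genes, 5 were higher and 0 were lower, with a mean of 6.30 to 6.50 on lymphoma arrays and 6.04 to 6.14 on control arrays. Of 9 genes of resident spleen macrophages 4 were higher and 5 were lower, with a mean of 9.11 to 9.50 on lymphoma arrays and 9.10 to 9.38 on control arrays. Of 8 T cell genes, 5 were higher and 0 were lower (mean 9.58 to 9.77 on lymphoma arrays and 9.13 to 9.25 on control arrays), and of 8 B cell genes, 0 were higher and 8 were lower. Of 8 megakaryocyte and platelet genes, which bear on *Tbxas1*, 1 was higher, and their mean was 7.99 to 8.24 on lymphoma arrays and 7.90 to 8.13 on control arrays. Calls were 1 higher and 1 lower among 6 endothelial genes, 2 higher and 0 lower among 6 fibroblast genes, and 2 higher and 0 lower among 5 erythroid genes.

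Eosinophil genes, which bear on *Alox15*, gave 1 higher and 1 lower of 6. Their mean was 6.33, 6.08, 6.57 and 5.89 on lymphoma arrays 1 to 4, against 6.34 to 6.41 on control arrays. The order of the lymphoma arrays in this mean was that of *Il5ra* and *Ccr3*, whereas *Epx* was lowest on array 3 and *Prg2* on array 1. Of the called genes, *Prg2* rose by 0.78 (limma adjusted p = 0.000188) and *Il5ra* fell by 1.93 (limma adjusted p = 0.00214). The part of these cells in the results was not tested.

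**Figure D4:**
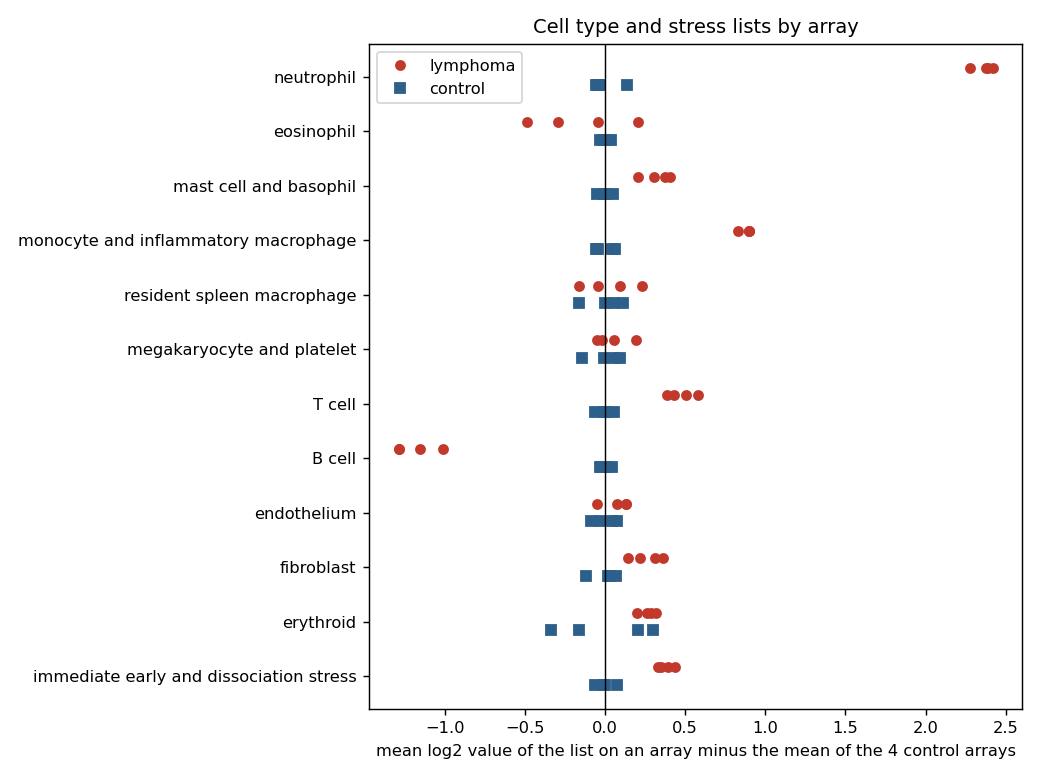
Mean log2 value of each list of cell type and stress genes on each array, minus the mean of the 4 control arrays, with lymphoma arrays as red circles above control arrays as blue squares. Neutrophil genes lie farthest to the right on lymphoma arrays, those of B cells lie to the left, and eosinophil genes spread on both sides of 0.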

How the data were processed

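Total RNA from spleens, 4 lymphoma and 4 control samples grouped by the sample labels, was hybridised to 1-colour arrays, 1 array per sample. The authors deposited log2 values obtained by robust multichip averaging, which corrects background, gives all arrays 1 distribution of probe signals and summarises probes per transcript cluster, so that small global shifts are lost. The submitters' processing notes name R 3.6.3. The genome build of the array annotation is not given in the sources used here. Of 29129 rows, 22206 are transcript clusters and 23 antigenomic background rows. The platform annotation gives 19572 clusters 1 symbol and 2634 none, 0 having several.

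Lymphoma was compared with control in R 4.3.3 with limma 3.58.1 (lmFit and eBayes, no covariate), the test named in the methods, with Benjamini-Hochberg adjustment over all clusters. Calls were two-sided, at an adjusted p no higher than 0.05. Differences between genes on the same array were compared with an exact permutation test. A pair of *Ptgs2* and *Ptgs1* had been planned and could not be formed, so 3 pairs were adjusted together. The number of arrays limits the precision, and no batch is known.

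The 9 genes and all lists were chosen with earlier results of these data known. Named were the 9 genes and, per role group or marker list, the 3 called genes with the largest change. Other genes named were chosen after their values were seen. The fit was tested on simulated arrays. Alternatives covered a replicate block, cyclic loess, equal medians, another moderation of variances, array weights, filters on dim clusters, an unmoderated test, a stricter threshold, the mean of clusters, another background floor and each array left out. Whether the replicate numbers pair the samples is not settled, and the main fit did not use them.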

Additional observations from a re-analysis of the deposited data

Results flagged for a closer look

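In groups of 4 arrays, a value was singled out when its gap to the nearest other value, as a share of the range of the group, exceeded the 95% critical value of Dixon's criterion. Chance alone does so in about 1 of 20 groups, and 4 of 50 groups of the named pathway genes were singled out. *Ptgs2* on lymphoma array 3 was 7.41, below the nearest lymphoma value of 8.32 by 0.871 of the range. *Tbxas1* on control array 3 was 8.88, above the nearest control value of 8.72 by 0.835 of the range. *Cysltr2* on control array 4 was 4.71, below the nearest of 4.99 by 0.834 of the range. *Ptgr1* on control array 2 was 5.66, below the nearest of 5.79 by 0.963 of the range. In all 4 cases the groups did not overlap.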

How the results depend on the processing

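Each measured gene kept its direction under every alternative run, and *Ptgs2*, *Ptges*, *Ptger2* and *Alox5ap* kept their call in all of them in which they were tested. Without the dimmest 50% of clusters, 2 of the 8 genes were called higher, since *Ptgs2*, *Ptges* and *Ptger2* were too dim to be tested. With each array left out in turn, 4 to 5 genes were called higher and 0 to 1 lower, which was *Hpgd* without lymphoma array 3. Log2 fold changes of *Hpgd* then ran from -0.41 to -0.13 and those of *Ptger4* from 0.23 to 0.36. *Ptger4* lost its call with equal medians (0.27, limma adjusted p = 0.0526), in an unmoderated test (0.30, adjusted p = 0.0971) and with the replicate block (0.30, limma adjusted p = 0.0691). Pathway genes called lower were 4 at an adjusted p of at most 0.01, and 4 to 8 with each array left out, with 4 without lymphoma replicate 1. Among the 17 other pathway genes refitted one by one at an adjusted p of at most 0.05, those that lost their call under some alternative were *Slco2a1*, *Dpep1*, *Ltb4r1*, *Aloxe3* and *Cyp4f15*. Against the 95th percentile of the antigenomic rows, 2 genes in place of 7 were above background on all arrays, and the *Ptgs2* bound was 0.953. The difference of *Ptger4* and *Ptger2* was -0.29 to -0.15, and that of *Alox15* and *Alox5* -0.31 to -0.17, with single arrays left out. That of *Alox15* and *Alox5* passed at -0.31 without control array 1 (exact permutation p = 0.0286). Sign flips within replicate numbers (the replicate block) left the differences at -0.24 for *Ptger4* and *Ptger2* and 3.86 for the measured values of *Ptgs2* and *Hpgd*, with an exact p of 0.125, the smallest they can give. The cause of these changes was not tested, apart from the number of clusters or arrays.

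Same-numbered lymphoma and control arrays deviated together only weakly (correlations of 0.0352 to 0.172, against -0.14 to 0.0609 for unlike numbers). Yet 7 of 8 arrays matched best with their own number. Whether the numbers pair the samples is therefore not settled. With the replicate block 4039 clusters were called higher and 3983 lower, against 4039 and 3825 without it, and it changed no call of the 8 genes other than that of *Ptger4*. Equal medians gave 3740 higher and 4605 lower, and cyclic loess 4142 and 3360. Values close to the antigenomic rows, as for *Alox15* and for *Ptgs2* on control arrays, limit what these arrays can show.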

Other observations

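*Hpgd* on lymphoma arrays spanned 0.84 on the log2 scale, against 0.14 on control arrays, in the order of arrays 3, 1, 2 and 4. Of all 22206 clusters, 5.71% had that order of lymphoma arrays. A range on lymphoma arrays at least that of *Hpgd* was found for 161 clusters (0.725%), and 25 of these (15.5%) had the same order. Named genes among these were kept where the lymphoma range was at least 2 times the control range. The widest ranges of those kept were those of *Il5ra*, which encodes a chain of the interleukin 5 receptor, with 7.70, 6.11, 8.21 and 5.85 on lymphoma arrays, against 8.95, 8.87, 8.89 and 8.88 on control arrays, and *Hepacam2*, with 7.73, 6.70, 8.58 and 6.57 on lymphoma arrays, against 8.66, 8.42, 8.67 and 8.07 on control arrays. Both were chosen after their values were seen. *Il5ra* is on the eosinophil list, as is *Ccr3*, which had the order too, but *Siglecf*, *Epx*, *Prg2* and *Ear6* of that list did not. The order was not particular to eosinophil genes. The list means of B cells, T cells and resident spleen macrophages had it as well as that of eosinophils, and those of the other lists did not. For B cells, lymphoma arrays 2 and 4 were all but equal, at 10.1292 and 10.1289. The order of 4 arrays is a description, and no test was made of it.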
